A study of Mus musculus with 4 samples.

Results

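The CC chemokines described here are 10 mouse genes (Ccl2, Ccl3, Ccl4, Ccl5, Ccl7, Ccl9, Ccl11, Ccl12, Ccl17 and Ccl19) out of 23461 genes named on the arrays. They were chosen by symbol, and every probe whose RefSeq accession belongs to one of those symbols was taken, which gave 11 probes (Ccl4 has a pair, each other gene 1). RNA of whole brain was measured on 4 single-colour Agilent expression arrays, 1 for each of 4 groups: wild-type mice given PBS (phosphate-buffered saline), Nav1.8CreROSA26DTA mice given PBS, wild-type mice given LPS, and Nav1.8CreROSA26DTA mice given LPS. LPS (lipopolysaccharide, from the outer membrane of Gram-negative bacteria) was given intraperitoneally at 20 mg/kg, with the brain collected after 12 hours, and the labels do not give the interval for PBS. Nav1.8CreROSA26DTA, written DTA below, joins a Cre recombinase driven by the Scn10a gene, which encodes the sodium channel Nav1.8, to a Cre-dependent diphtheria toxin A gene at the ROSA26 locus, so cells that have used the Nav1.8 gene, chiefly pain-sensing neurons outside the brain, are killed. The labels give no age, sex or strain background, do not name a Cre-only or toxin-only control, and do not say whether an array holds 1 brain or a pool.

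Chemokines are small secreted proteins that guide the movement of leukocytes through G protein-coupled receptors on the responding cell. The CC class is named for adjacent cysteines near the amino terminus. Ccl2, Ccl7 and Ccl12 act on Ccr2 and draw monocytes out of marrow and blood; Ccl11 acts on Ccr3 and draws eosinophils; Ccl3, Ccl5 and Ccl9 act on Ccr1 of myeloid cells; Ccl17 acts on Ccr4 of T cells; and Ccl19 acts on Ccr7 of dendritic cells and naive T cells. In the brain under systemic inflammation such ligands can come from endothelium, microglia, astrocytes and the macrophages of meninges and vessels. In whole-brain RNA, a change in the number of cells of a type and a change in RNA per cell cannot be told apart.

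Of the 10 genes, 8 lie on chromosome 11 in 2 groups (GRCm38.p6, RefSeq). Ccl2, Ccl7, Ccl11 and Ccl12 lie together within chr11:82035577-82103399, a span of 67.8 kb, and Ccl5, Ccl9, Ccl3 and Ccl4 within chr11:83525778-83664683, a span of 138.9 kb. Ccl17 lies on chromosome 8 and Ccl19 on chromosome 4. The annotated Ccl4 locus (chr11:83648624-83664683) overlaps that of Ccl3 (chr11:83647843-83649378). Ccl19 has an annotated copy (Gm2023) and 3 pseudogenes on chromosome 4, so the copy behind its signal is uncertain.

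The 250 bases before a start site were available from RefSeq (GRCm38.p6) for 5 of the 10 genes (Ccl3, Ccl9, Ccl12, Ccl17 and Ccl19). They were searched on both strands for 4 promoter motifs. The motifs were the NF-kappaB consensus, present in 3.90% of 32841 mouse promoters of this length, the interferon-response core (GAAA, any 2 bases, GAAA; 2.98%), the AP-1 site TGACTCA (4.46%) and the TATA box TATAAA (12.4%). Those of 3 genes are shown because they hold a match, which is in capitals, and because their genes responded differently, Ccl9 to a like extent in both genotypes, Ccl19 in both but more in wild-type, and Ccl12 upwards in wild-type alone. Ccl9 (minus strand, chr11:83578637-83578886) has an NF-kappaB consensus match on the opposite strand 35 to 26 bases upstream, a TATA box 92 to 87 bases upstream that overlaps one on the opposite strand (94 to 89), and another on the opposite strand (224 to 219). Ccl19 (minus strand, chr4:42756366-42756615) has the interferon-response core 208 to 199 bases upstream. Ccl12 (plus strand, chr11:82101595-82101844) has a TATA box 31 to 26 bases upstream. Neither Ccl3 nor Ccl17 had a match in this window, and no gene of the 5 had the AP-1 site. The Ccl17 window (plus strand, chr8:94810203-94810452) lies inside the annotated Ccl17 locus (chr8:94809380-94812038), so the bases before that locus were not searched. A match of letters is a description of the sequence.
Ccl9: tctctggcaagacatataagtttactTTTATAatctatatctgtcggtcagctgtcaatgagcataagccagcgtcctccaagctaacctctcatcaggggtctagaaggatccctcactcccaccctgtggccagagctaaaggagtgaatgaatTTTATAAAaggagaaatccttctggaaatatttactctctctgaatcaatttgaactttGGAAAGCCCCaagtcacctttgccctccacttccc
Ccl19: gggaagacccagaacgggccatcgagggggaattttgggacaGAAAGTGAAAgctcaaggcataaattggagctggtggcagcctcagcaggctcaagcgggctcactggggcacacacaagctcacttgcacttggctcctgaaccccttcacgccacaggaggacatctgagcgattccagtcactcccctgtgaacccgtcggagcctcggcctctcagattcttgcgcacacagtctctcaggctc
Ccl12: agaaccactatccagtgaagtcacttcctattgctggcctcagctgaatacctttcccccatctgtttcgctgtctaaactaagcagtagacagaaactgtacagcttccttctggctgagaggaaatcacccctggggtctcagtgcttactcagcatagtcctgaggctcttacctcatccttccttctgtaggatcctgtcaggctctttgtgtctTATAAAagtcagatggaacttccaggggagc

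Levels are given as the spot's processed signal in percent of that array's 75th percentile, so that 100% is the signal at that percentile. By the scanner software's flags, 66.5% to 69.5% of an array's spots stood well above background and 0 were saturated; a signal without that flag is called dim. All 34 of 34 markers of neurons, astrocytes, oligodendrocytes, microglia and brain endothelium were well above background on all 4 arrays. Scn10a, the gene that drives Cre, was well above background on all 4 arrays, at 21.7%, 17.2%, 106% and 147% (wild-type PBS, DTA PBS, wild-type LPS, DTA LPS), and rose 6.44-fold with LPS (limma, adjusted p = 2.2e-05). It was lower by 0.33 (log2) in DTA with PBS and higher by 0.47 with LPS, and whole-brain RNA does not check the ablation of sensory neurons in ganglia. With 1 array a group, comparisons within a genotype or within an injection have no test. The error beside such a log2 difference is the scanner software's own spot error of 1 array against 1, which leaves out the spread between animals. LPS averaged over both genotypes and genotype averaged over both injections were tested with limma across 17132 genes, with 1 residual degree of freedom, and all adjusted p-values are two-sided and over all of those genes.

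LPS raised 5 of the 9 CC chemokine genes that could be tested, Ccl5, Ccl2, Ccl7, Ccl9 and Ccl19, and lowered none (limma, adjusted p under 0.05; at an unadjusted p under 0.05 the counts were also 5 and 0). Across all genes tested, 5.62% were called higher and 4.54% lower. The averaged log2 difference between LPS and PBS had a median of 1.29 over the 9 genes and of -0.03 over all genes. The 9 entered the test because they were well above background on at least 2 arrays, which genes induced by LPS can pass through the LPS arrays alone. Of the 9, 8 were well above background on all 4 arrays, and Ccl7 on 3, including DTA PBS. Ccl11 was above background on 1 array and was not tested. Of the 9 tested genes, both LPS arrays read higher than both PBS arrays for the 5 called ones alone, as for 21.7% of all tested genes. The calls come from the same arrays, so this order adds no separate support to them.

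**Figure D1:**
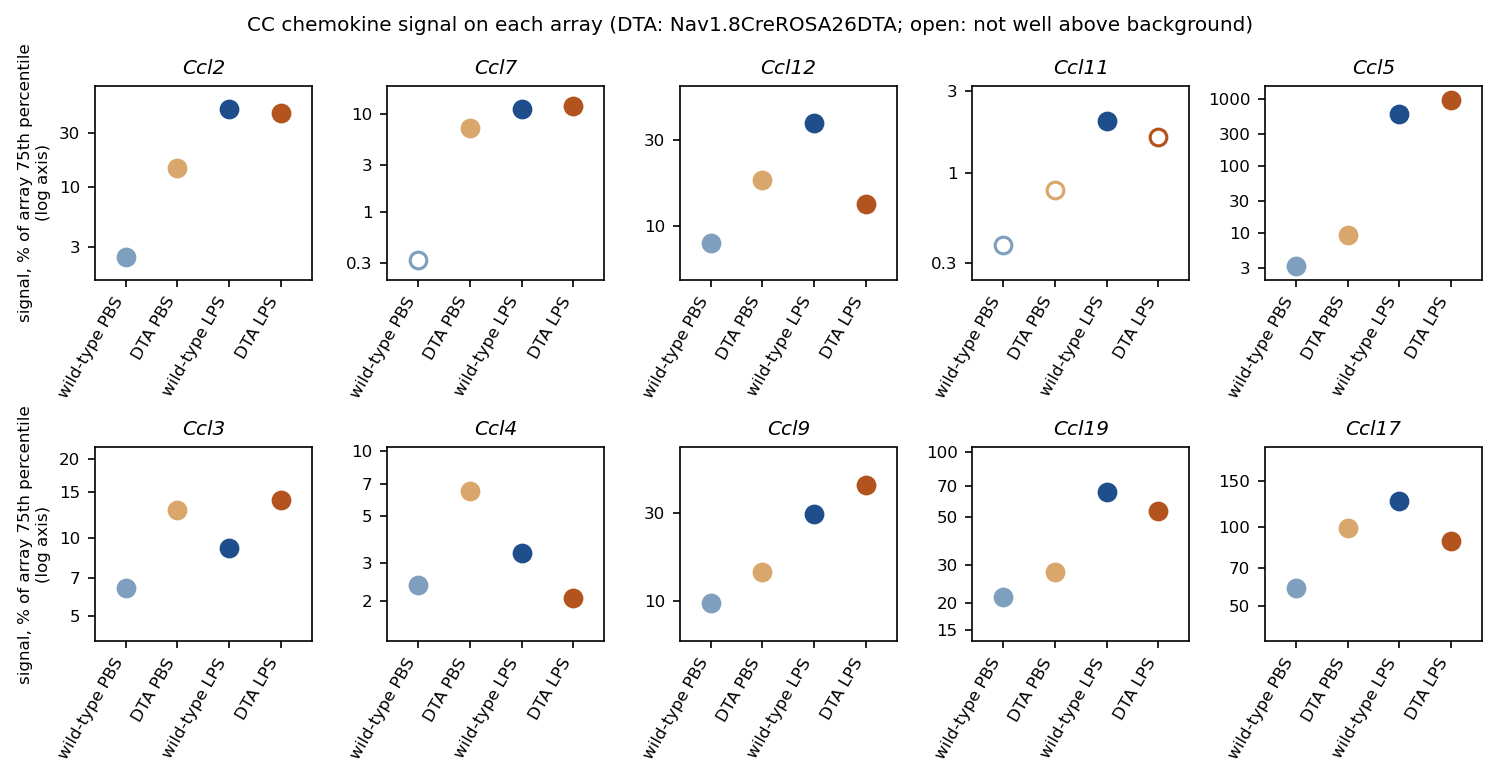
Signal of each CC chemokine gene on the 4 arrays, in percent of the array's 75th percentile (log axis, 1 point per array, each panel with its own scale; open points were not well above background; DTA is Nav1.8CreROSA26DTA). Ccl5 rises from 3.22% and 9.22% with PBS to 587.8% and 975.8% with LPS, while Ccl12 is highest on the wild-type LPS array at 37.2%.

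Ccl2, the main attractant of inflammatory monocytes, read 2.44% of the 75th percentile in wild-type PBS, 14.7% in DTA PBS, 49.2% in wild-type LPS and 45.9% in DTA LPS. Both LPS arrays were high and close to each other, and the PBS arrays were far apart from each other. The averaged LPS difference was 2.99 ± 0.48 (log2 ± SE), or 7.93-fold (limma, adjusted p = 0.00430). It was 4.33 ± 0.25 (20.1-fold) in wild-type and 1.64 ± 0.21 (3.12-fold) in DTA. Fits of 3 arrays, which hold the agent term alone, gave 1.69 without wild-type PBS and 4.28 without DTA PBS, both called. The call was lost without wild-type LPS (2.94, adjusted p = 0.140) and without DTA LPS (3.04, adjusted p = 0.158), and in the fit of all arrays without limma's intensity trend (adjusted p = 0.182). Another background correction, normexp, gave 1.76.

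Ccl7, a further Ccr2 ligand that draws monocytes, read 0.328% in wild-type PBS, which was not well above background, 7.22% in DTA PBS, 11.2% in wild-type LPS and 12.1% in DTA LPS. The wild-type PBS array alone was low, and the other 3 lay close together. Its averaged LPS difference was 2.92 ± 0.78 on the log2 scale (limma, adjusted p = 0.0477). With the dim signal set to the lowest signal well above background on its array, that difference was 1.96. In wild-type LPS gave at least 9.0-fold, and in DTA 0.75 ± 0.23 (1.68-fold). The call rested on the wild-type PBS array, since the difference was 0.69 without it (adjusted p = 0.202). It was also lost without wild-type LPS (2.98, adjusted p = 0.396) and without DTA LPS (2.86, adjusted p = 0.543), and without DTA PBS it was 5.15. Normexp background correction gave 0.58 (adjusted p = 0.0654), and the fit without trend an adjusted p of 0.315.

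Ccl12, the mouse Ccr2 ligand also called MCP-5, read 8.12% in wild-type PBS, 18.1% in DTA PBS, 37.2% in wild-type LPS and 13.3% in DTA LPS. The wild-type LPS array was the highest of the 4, and the DTA LPS array lay below the DTA PBS array, so the PBS and LPS arrays overlapped. The averaged LPS difference, 0.88 ± 0.47, did not pass the test (limma, adjusted p = 0.314). LPS gave 2.19 ± 0.21 (4.58-fold) in wild-type and -0.44 ± 0.21 in DTA. The eosinophil attractant Ccl11 read 0.384% and 0.798% with PBS and 2.01% and 1.62% with LPS (wild-type first), and only the wild-type LPS signal was well above background. LPS there gave at least 1.62-fold.

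Ccl5 (RANTES), a ligand of Ccr1 and Ccr3 that T cells, endothelium and glia can make, changed most of the 10 genes. It read 3.22% in wild-type PBS, 9.22% in DTA PBS, 587.8% in wild-type LPS and 975.8% in DTA LPS, with a wide gap between the PBS and LPS arrays. The averaged LPS difference was 7.12 ± 0.18 on the log2 scale, or 139-fold (limma, adjusted p = 5.7e-08). It was 7.51 ± 0.23 (183-fold) in wild-type and 6.72 ± 0.21 (106-fold) in DTA. Leaving out each array in turn gave 6.36 to 7.88, and each of these fits called it. Normexp gave 5.65 (50.3-fold), with 5.69 in wild-type and 5.62 in DTA.

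Ccl9, a Ccr1 ligand of myeloid cells found in rodents, read 9.68% in wild-type PBS, 14.3% in DTA PBS, 29.5% in wild-type LPS and 42.2% in DTA LPS. The DTA array was the higher of the pair within each injection, and both LPS arrays lay above both PBS arrays. LPS raised it by 1.58 ± 0.17 (3.0-fold; limma, adjusted p = 3.2e-04), with 1.61 ± 0.21 in wild-type and 1.56 ± 0.21 in DTA. Normexp gave 0.98, with the call kept. The call was lost without wild-type PBS (1.30, adjusted p = 0.0682) and without DTA LPS (1.33, adjusted p = 0.0903).

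Ccl3 and Ccl4 (MIP-1 alpha and beta), which macrophages and microglia make early after activation, did not pass the test. Ccl3 read 6.38% in wild-type PBS, 12.7% in DTA PBS, 9.08% in wild-type LPS and 13.9% in DTA LPS, so its DTA arrays were the higher ones and the injections overlapped. Its averaged LPS difference was 0.32 ± 0.22 (limma, adjusted p = 0.441). Ccl4 read 2.37%, 6.51%, 3.32% and 2.07% in the same order, highest on the DTA PBS array, with an averaged LPS difference of -0.58 ± 0.49 (adjusted p = 0.532). LPS gave 0.49 ± 0.32 in wild-type and -1.65 ± 0.34 in DTA. The second Ccl4 probe had the same order of arrays, with scaled log2 signals of -6.24, -4.39, -5.39 and -6.88, the first and last not well above background.

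Ccl19, which with Ccl21 guides Ccr7-bearing dendritic cells and naive T cells, read 21.3% in wild-type PBS, 27.7% in DTA PBS, 65.7% in wild-type LPS and 53.4% in DTA LPS. The LPS arrays were both above the PBS arrays. LPS raised it by 1.29 ± 0.18 (2.44-fold; limma, adjusted p = 0.00181), with 1.63 ± 0.21 in wild-type and 0.95 ± 0.21 in DTA. The call was lost without wild-type LPS (1.14, adjusted p = 0.0550) and in the fit without trend (adjusted p = 0.0980). Ccl17, a Ccr4 ligand that dendritic cells make, read 58.5% in wild-type PBS, 99.3% in DTA PBS, 126% in wild-type LPS and 88.9% in DTA LPS, so the DTA arrays lay between the wild-type ones. Its averaged LPS difference was 0.48 ± 0.24 (adjusted p = 0.276), from 1.11 ± 0.20 in wild-type and -0.16 ± 0.20 in DTA.

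**Figure D2:**
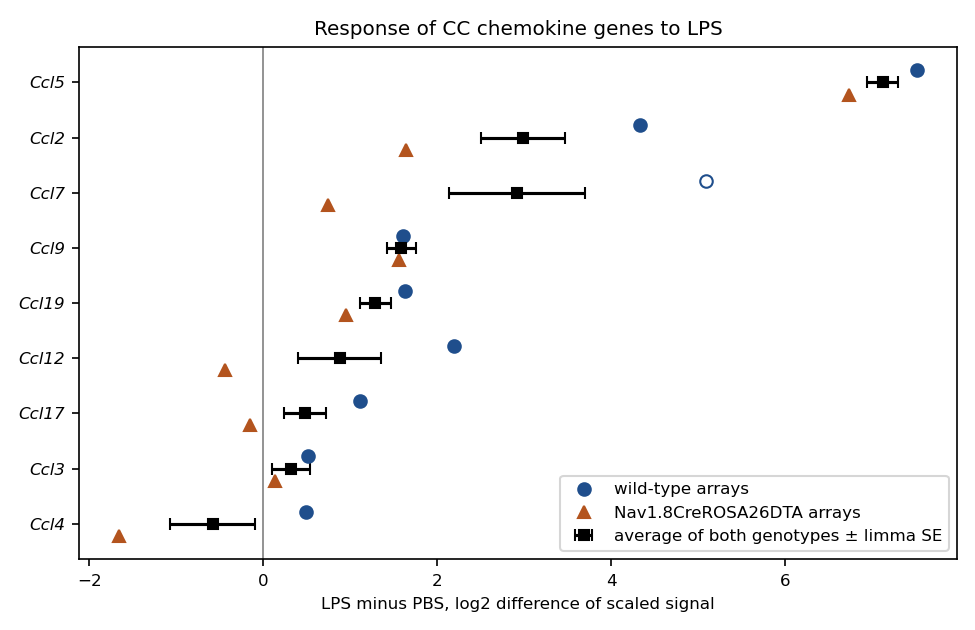
Log2 difference of scaled signal between LPS and PBS for the 9 tested genes: squares are the average over both genotypes with limma's standard error, circles the wild-type pair of arrays and triangles the Nav1.8CreROSA26DTA pair (open where an array was not well above background). Ccl5 stands at 7.12, and the circles of Ccl2, Ccl12 and Ccl17 (4.33, 2.19 and 1.11) lie to the right of their triangles (1.64, -0.44 and -0.16).

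Set side by side, the LPS response was at least 2-fold upwards in wild-type for 6 of the 8 genes measured on both arrays (3.41% of all genes; 0.618% were 2-fold lower) and in DTA for 3 of 9 (3.1% of all genes), with Ccl4 at least 2-fold lower there (1.42%). With normexp these counts were 5 of 8 and 2 of 9, Ccl9 falling just short in both genotypes (0.97 and 0.99) and Ccl4 in DTA at -0.72, and Ccl2 in wild-type was 2.45 (5.46-fold). All 8 measured genes read higher with LPS in wild-type, as 45.6% of all genes did. The median response of the measured genes was 1.62 in wild-type and 0.75 in DTA, against -0.02 and -0.04 over all genes. The response was more positive in wild-type for 8 of the 8 genes measured on all 4 arrays (7 of 8 with normexp, Ccl9 excepted), as it was for 55.2% of 16244 genes. The DTA minus wild-type difference of the log2 responses was -2.69 for Ccl2, -2.64 for Ccl12, -2.14 for Ccl4 and -1.27 for Ccl17. It was -0.79 for Ccl5, -0.68 for Ccl19, -0.38 for Ccl3 and -0.05 for Ccl9, while 95% of all genes had a difference of 0.77 or less in size. This difference is the model's only residual degree of freedom and was not tested. The 95% is taken over genes of all signal levels, and Ccl4 read near background. With normexp the responses of the 2 genotypes lay closer together for Ccl2 (2.45 in wild-type and 1.07 in DTA) and Ccl12 (1.37 and -0.41). The same held for Ccl4 (0.14 and -0.72) and Ccl17 (1.03 and -0.05). Ccl4, Ccl12 and Ccl17 had responses of opposite sign in the 2 genotypes, higher in wild-type, as 16.5% of genes did (32.3% had opposite signs in either direction).

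The DTA PBS array read higher than the wild-type PBS array for all 8 CC chemokine genes measured on both (57.2% of all genes did). The difference was 2-fold or more for 4 of them, Ccl2, Ccl4, Ccl5 and Ccl12 (1.21% of all genes; 0.415% were 2-fold lower). With normexp background correction the count was 1, Ccl2 at 1.19 (2.29-fold), with Ccl5 at 0.76, Ccl12 at 0.69 and Ccl4 at 0.59, and all 8 still read higher. Ccl2 was 2.59 ± 0.25 higher on the log2 scale (6.01-fold), Ccl5 1.52 ± 0.24, Ccl4 1.46 ± 0.28 and Ccl12 1.16 ± 0.21. Ccl3 stood just under 2-fold at 0.996 ± 0.22, and Ccl17 at 0.76, Ccl9 at 0.56 and Ccl19 at 0.38. Ccl7 was at least 5.82-fold higher, the wild-type signal being dim. The median was 1.08 over the 8 genes and 0.04 over all genes. The same DTA PBS array enters the LPS response in DTA, so these values and the DTA responses share an array.

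Markers of several cell types, among them neutrophils and red cells, were also high on the DTA PBS array. By any amount, 57.2% of all genes read higher on that array than in wild-type PBS. All 9 of 9 neutrophil markers tested read higher there than in wild-type PBS, and their summed signal was 0.861 of the array's 75th percentile in wild-type PBS, 4.40 in DTA PBS, 5.81 in wild-type LPS and 8.21 in DTA LPS. S100a8, a calprotectin subunit abundant in neutrophils, read 3.54%, 69.2%, 104.5% and 165% in that order, and the neutrophil receptor gene Cxcr2 was not above background on any array. The 7 monocyte markers, 5 of which read higher in DTA PBS, summed to 36.8, 36.6, 56.6 and 46.3. The 4 red-cell and platelet markers tested summed to 45.4, 334, 108 and 174, all 4 higher in DTA PBS, with haemoglobin Hba-a1 at 2.86 on the log2 scale. Macrophages of the brain's borders (6 of 6 markers higher) summed to 0.875, 1.70, 1.40 and 1.21, and fibroblasts and pericytes to 6.20, 11.9, 13.8 and 16.4. Of 8 microglial markers 7 read higher in DTA PBS, with a median of 0.22, while their sum, most of it Siglech, went from 118 to 114; of 7 neuronal markers 3 read higher, and their sum went from 319 to 307. The T and NK cell list (5 of 6 tested higher) summed to 28.7 and 25.6, the dendritic cell list (2 of 3) to 0.647 and 0.535, and the B cell list (4 of 4) to 0.111 and 0.229. Astrocyte markers (6 of 6 higher) summed to 43.1 and 52.4, oligodendrocyte markers (6 of 6) to 97.9 and 142, and endothelial markers (6 of 7) to 17.9 and 18.8. The choroid plexus list (3 of 4 tested higher) summed to 0.194, 0.366, 1.18 and 1.55 on the 4 arrays. The part of these cells in the chemokine signals was not tested.

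With LPS the genotypes lay closer together for most of the CC chemokine genes. None of 9 was at least 2-fold higher in DTA (0.829% of all genes), and Ccl12 was lower by that much, at -1.48 ± 0.21 (0.369%). With the mean over the probes of a gene, Ccl4 was at least 2-fold lower as well, at -1.09. Ccl5 was 0.73 ± 0.20 higher in DTA, Ccl3 0.61 ± 0.22 and Ccl9 0.52 ± 0.21, whereas Ccl4 differed by -0.69 ± 0.37, Ccl17 by -0.51 ± 0.20 and Ccl19 by -0.30 ± 0.20. Ccl2 and Ccl7 differed by -0.10 ± 0.20 and 0.12 ± 0.22, within the scanner's error. The median was -0.10 over the 9 genes and 0.00 over all genes.

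Averaged over both injections, Ccl5 was the 1 gene of the 9 called for genotype, higher in DTA by 1.12 ± 0.18 (2.18-fold; limma, adjusted p = 0.0460). Across all genes, 0.304% were called higher in DTA and 0.105% lower. The call did not hold with cyclic loess scaling (adjusted p = 0.0680), the deposited value table (0.103), the mean over probes (0.134) or without the intensity trend (0.466). Fits of 3 arrays hold no agent term for genotype and called 0 of all genes, so they say nothing about this call. Ccl7 differed by 2.29 ± 0.78 (adjusted p = 0.325), Ccl2 by 1.24 ± 0.48 (0.411), Ccl3 by 0.81 ± 0.22 (0.192) and Ccl9 by 0.54 ± 0.17 (0.262). Both DTA arrays read above both wild-type arrays for Ccl3, as for 16.1% of genes. The other 4 genes lay between -0.16 and 0.39, and the median of the 9 was 0.54 against 0.02 over all genes. Markers of oligodendrocytes, the myelin-forming cells, also read higher in DTA, 6 of 6 by averaged genotype with a median of 0.73 and 2 called, Mobp (1.31 ± 0.15, adjusted p = 0.00943) and Cnp (0.78 ± 0.12, adjusted p = 0.0417). They summed to 97.9 in wild-type PBS, 142 in DTA PBS, 70.7 in wild-type LPS and 156 in DTA LPS, and their part in the Ccl5 difference was not tested.

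**Figure D3:**
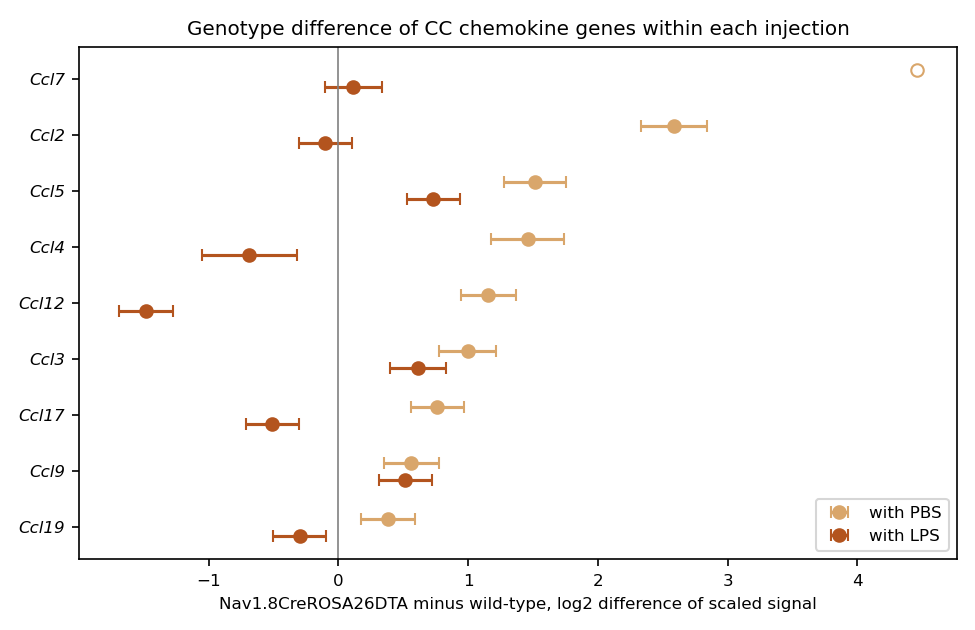
Log2 difference of scaled signal between Nav1.8CreROSA26DTA and wild-type within PBS and within LPS for the 9 tested genes (1 array against 1; bars are the scanner software's spot error; open points include a signal not well above background). With PBS the filled points lie between 0.38 and 2.59, and with LPS Ccl12 stands at -1.48.

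Of 11 other CC ligands, 7 could be tested, and 1 rose with LPS and 2 fell, with a median difference of 0.17. Over all genes tested, 5.62% were called higher and 4.54% lower, with a median of -0.03. The same shares stand beside the receptor counts below. Ccl21a, the other Ccr7 ligand, read 586%, 278%, 860% and 525% (wild-type PBS, DTA PBS, wild-type LPS, DTA LPS) and rose by 0.73 ± 0.11 (limma, adjusted p = 0.00267). It was lower in DTA by averaged genotype, at -0.89 ± 0.11 (adjusted p = 0.0145), a call lost without trend (0.424) and with the mean over probes (0.0849). Ccl24, a Ccr3 ligand, read 4.46%, 9.33%, 2.03% and 0.985% (the last dim) and fell by 2.19 ± 0.49 (adjusted p = 0.0220). Ccl27a, a Ccr10 ligand made mainly by skin epithelium, read 2231%, 1967%, 1547% and 1651% and fell by 0.39 ± 0.10 (limma, adjusted p = 0.0382). Ccl21a and Ccl27a have near-identical copies on chromosome 4, so which copy was read is uncertain. Ccl1, Ccl20, Ccl22 and Ccl26 were not above background on any array.

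Of 10 CC receptors described here, 4 could be tested and 2 rose with LPS, with a median of 0.67; 5 were not above background on any array. Ccr1, Ccr3 and Ccr4, the receptors of Ccl9, Ccl11 and Ccl17, were dim on every array, as were Ccr6 and Ccr1l1. Ccr2, the receptor of Ccl2, Ccl7 and Ccl12 and a marker of inflammatory monocytes, was above background on the DTA PBS array alone, at 3.47%. Ccr7, the receptor of Ccl19, read 3.17%, 5.88%, 9.88% and 14.9% and rose by 1.49 ± 0.24 (adjusted p = 0.00469). Ccr8, found on T cells and receptor of Ccl1, rose by 1.12 ± 0.22 (adjusted p = 0.0124).

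The atypical receptors bind chemokines without G-protein signalling. Of 5, 4 were tested and 2 rose with LPS, with a median of 0.56. Ackr1, which on venules carries CC and CXC ligands across the endothelium, read 636%, 780%, 1027% and 1251%, both LPS arrays above both PBS arrays, and rose by 0.69 ± 0.09 (limma, adjusted p = 0.00117). Ccrl2, which presents chemerin on endothelium and leukocytes, rose by 1.16 ± 0.20 (adjusted p = 0.00651).

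**Figure D4:**
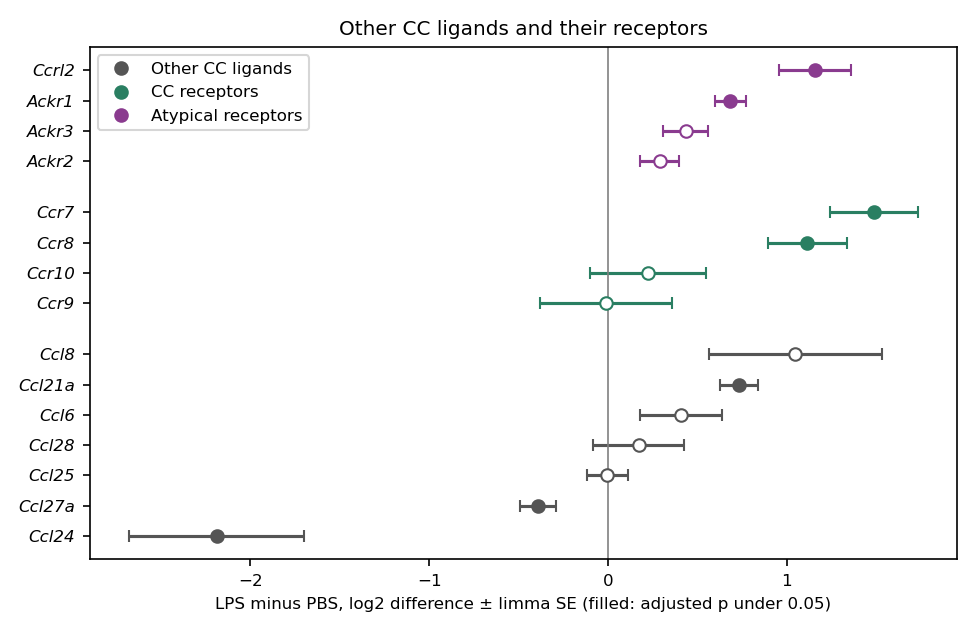
Averaged log2 difference between LPS and PBS with limma's standard error for the other CC ligands, CC receptors and atypical receptors that could be tested (filled where the adjusted p was under 0.05). Ccr7 at 1.49 and Ccrl2 at 1.16 stand to the right, and Ccl24 at -2.19 to the left.

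Of 24 tested genes that relay chemokine receptor signals, 4 rose and 1 fell with LPS, with a median of 0.03. Over all genes tested, 5.62% were called higher and 4.54% lower, with a median of -0.03. Those that rose were Rac2 (1.51 ± 0.17), the small GTPase of blood cells, Pik3r5 (1.51 ± 0.21), a regulatory subunit of PI3-kinase gamma, Vav1 (0.93 ± 0.11), an exchange factor for Rac, and Rgs16 (0.43 ± 0.11), which shortens G-protein signals. Prex1, another Rac exchange factor, fell by 0.68 ± 0.12. Their limma adjusted p-values lay between 5.4e-04 and 0.0354. Of 12 genes that process, modify or hold chemokines, 2 rose, with a median of 0.08. Mmp12, a macrophage elastase that cuts CC ligands, was dim on both PBS arrays and read 12.4% and 24.9% with LPS, at least 12.4-fold higher (limma, adjusted p = 2.1e-05). Syndecan-4 (Sdc4), a cell-surface proteoglycan, rose by 0.46 ± 0.10 (adjusted p = 0.0160).

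Of these 14 list genes called for LPS, Mmp12 alone kept its call in all 4 fits that left out 1 array. Ccl21a, Ccl27a, Ccr8, Rgs16 and Sdc4 were called in none of the 4, and each of the others in 1. All 14 kept their direction. Without the intensity trend 5 of the 14 were called (Ccr7, Ccrl2, Pik3r5, Rac2 and Mmp12), and Ccl27a was called in 4 of its 8 other alternatives. LPS also raised 5 of the 9 neutrophil markers and 4 of the 7 monocyte markers tested (5.62% of all genes were called higher and 4.54% lower). Ly6g, a surface marker of neutrophils, rose by 2.64 ± 0.18 (adjusted p = 2.2e-05). By the averaged difference 6 of the 9 neutrophil markers read higher with LPS and the others lower, and within DTA 5 of the 9 read higher. Markers of resident cells moved too. LPS lowered 3 of 8 microglial markers, P2ry12 by most (it fell by 2.73 ± 0.15, adjusted p = 4.7e-06), and of 7 endothelial markers it lowered 3 and raised 2. Of 6 astrocyte markers 2 rose and 1 fell, with Gfap, a filament protein of reactive astrocytes, up by 1.89 ± 0.14 (adjusted p = 3.2e-05). The part of these cells in the receptor and ligand signals was not tested.

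**Figure D5:**
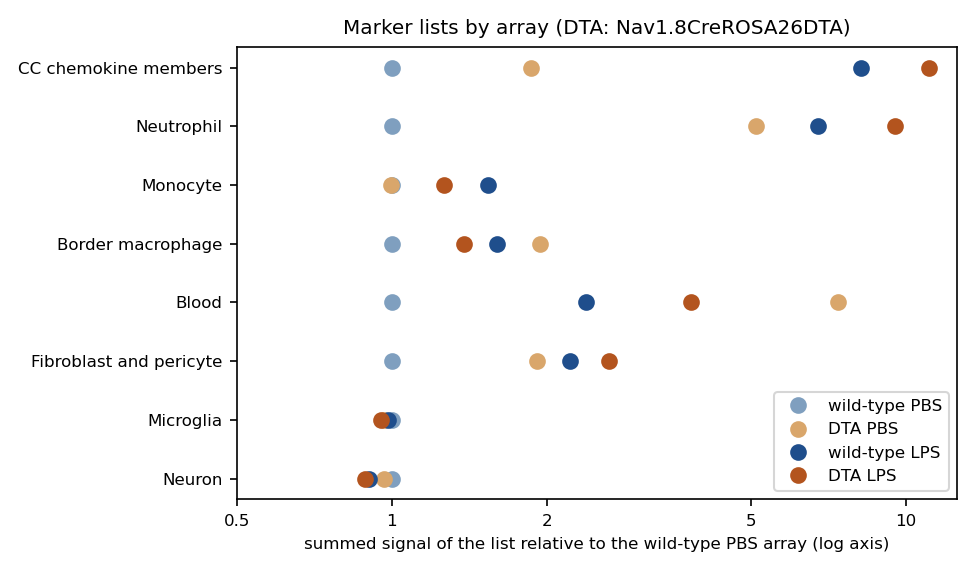
Summed signal of the CC chemokine genes and of marker lists of cell types, relative to the wild-type PBS array (log axis, 1 point per array; DTA is Nav1.8CreROSA26DTA). In DTA PBS the blood list stands at 7.37 and the neutrophil list at 5.11 times wild-type PBS, against 1.87 for the CC chemokines, 0.963 for microglia, whose sum is mostly Siglech, and 0.963 for neurons. Some lists are not drawn, among them choroid plexus at 1.885 in DTA PBS, oligodendrocytes at 1.454 and astrocytes at 1.215.

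For each of the 8 genes above background on all arrays, the 3 other genes with the nearest pattern were found by Euclidean distance of log2 signals centred over the 4 arrays, where 0 is an identical pattern. With only 4 arrays, many genes can lie close. Nearest to Ccl5 was Cxcl10, a CXC chemokine induced by interferon, at 0.91, with responses of 7.15 in wild-type and 6.80 in DTA, then the iron-binding protein gene Lcn2 at 1.21 and Gbp2, a guanylate-binding protein, at 2.39. Nearest to Ccl2 were Ifi27l2a (0.70), Oas2 (0.90) and Rsad2 (1.06), all interferon-induced. Nearest to Ccl19 were Rasip1 (0.10), an endothelial Ras-interacting protein gene, Lyve1 (0.12), a marker of lymphatic endothelium and border macrophages, and Lrrc32 (0.12). Ccl9 lay nearest to Ada (0.12), adenosine deaminase, and then to Ip6k3 (0.14) and Arpc1b (0.15). Ccl17 lay nearest to Slc2a4 (0.10), the insulin-regulated glucose transporter gene, Foxd4 (0.11) and Ccl6 (0.16), another CC ligand. Nearest to Ccl12 were Tbx15 (0.37), Vwa5b1 (0.54) and Gp6 (0.55). Ccl3 lay nearest to Pgam2 (0.07), Tcam1 (0.11) and Adcy7 (0.15), and Ccl4 to Fbln7 (0.27), Lbhd2 (0.28) and Arhgef39 (0.29).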

How the data were processed

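Total RNA of whole brain was extracted with TRIzol and labelled with Cy3 by an Agilent low-input kit, per the labels' protocols, and hybridised to 4 arrays on 1 slide, read in 1 scan. The deposited intensity is each spot's processed signal, background-subtracted by Agilent Feature Extraction (11.0.1.1 per the submitters' processing notes, 12.0.3.1 per the file headers, design grid on mm9). Background and outlier flags are the same software's, per the file headers. A value table, also deposited, holds that intensity times 1 factor per array (1.82, 2.09, 1.83 and 1.57). No source used here says how those factors were set.

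Each array held 59305 spots for 56605 probes. Spots with an outlier mark (81 to 96 per array) were left out, spots of a probe averaged, and log2 signals reduced by the array's 75th percentile (612, 514, 634 and 726, for wild-type PBS, DTA PBS, wild-type LPS and DTA LPS). RefSeq accessions gave 33767 probes 1 symbol and 22838 none, and 1 probe per gene was used, the one above background on most arrays, then the brightest. limma 3.58.1 (R 4.3.3) fitted genotype and agent to 17132 genes well above background on at least 2 arrays. The fit had an intensity trend, a prior of 7.99 degrees of freedom and Benjamini-Hochberg adjustment at 0.05. With a simulated LPS effect it called 59 of 16932 unchanged genes. Of 50 genes changed by each of 1, 2, 3 and 4 (log2), it called 40, 49, 50 and 50. Unchanged genes were thus a larger share of those calls than the 0.05 threshold allows for. The p-values from limma rest on 1 array per group, which limits the precision of every value. The only residual of a gene is the difference of its LPS responses between the genotypes. In it, unlike responses, spread between animals and technical spread cannot be told apart. A fold against a dim signal is at least the bright signal over the lowest signal well above background, or the dim signal where that was higher.

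The CC chemokine genes, the 5 gene lists and the 14 marker lists were chosen with earlier results of these data known. Named from the lists were up to 5 genes with the largest LPS effect and 3 with the largest genotype effect past the threshold, and the main receptors of the ligands, with some markers named as examples after their values were seen. A receptor gene of the lists is not reported here and stays out of their counts. The alternatives were scaling to the median, cyclic loess, the deposited table, normexp (offset 50) on the median signal, no filter, a filter on all 4 arrays, no trend, the mean over probes, and leaving out each array.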

Additional observations from a re-analysis of the deposited data

Results flagged for a closer look

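Ccl4, Ccl12 and Ccl17 moved in opposite directions with LPS in the 2 genotypes, and the difference was not tested, since each genotype has 1 array per injection. They are 3 of the 8 CC chemokine genes measured on all 4 arrays, and 32.3% of all genes so measured had opposite signs. Ccl4 differed by 0.49 in wild-type and -1.65 in DTA (log2, LPS minus PBS), Ccl12 by 2.19 and -0.44, and Ccl17 by 1.11 and -0.16. The scanner software's spot error of these log2 differences was 0.32 and 0.34 for Ccl4, 0.21 and 0.21 for Ccl12, and 0.20 and 0.20 for Ccl17, so the DTA value of Ccl17 lay within its error. All 3 comparisons in DTA use the DTA PBS array, on which markers of blood, neutrophils and other cells were high. With normexp Ccl3 also had opposite signs, at 0.16 in wild-type and -0.18 in DTA.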

How the results depend on the processing

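No paired analysis was possible because each group has 1 array and the labels carry no replicate numbers. The count of CC chemokine genes called higher with LPS, 5, became 8 with no filter and 2 with no trend, and 2 to 5 when 1 array was left out. Ccl5 was called in every one of the 12 alternatives, and the call of Ccl7 ended with cyclic loess (adjusted p = 0.0638), the deposited table (0.0757), the mean over probes (0.101), normexp (0.0654) and no trend (0.315), which also ended those of Ccl2 (0.182) and Ccl19 (0.0980). The count called for genotype, 1, became 3 with no filter, 0 with cyclic loess, the deposited table, the mean over probes or no trend, and 0 in each fit that left out 1 array. Over all genes the genotype calls, 52 higher and 18 lower, moved as well, to 654 and 304 with no filter, 166 and 31 with scaling to the median, 258 and 125 with normexp, 28 and 8 with cyclic loess, 20 and 8 with the deposited values, 11 and 1 with the mean over probes, and 0 and 0 both with no trend (1476 at an unadjusted p under 0.05) and in every fit of 3 arrays (239 to 790 unadjusted). Normexp turned the uncalled LPS difference of Ccl3 to -0.0095 and called Ccl17 higher (adjusted p = 0.0249). Fits of 3 arrays hold 1 term, so agent is unmodelled in the genotype fits, whose lost calls say nothing about stability. The uncalled LPS differences then spanned -0.18 (without wild-type PBS) to 0.82 for Ccl3 and -1.31 to 0.15 (without DTA PBS) for Ccl4. The genotype difference turned sign, from -0.92 to 3.41 for Ccl2, -2.63 to 4.88 for Ccl5, -0.26 to 4.83 for Ccl7, -0.27 to 1.34 for Ccl9, -0.43 to 0.68 for Ccl17 and -0.77 to 0.86 for Ccl19 (each lowest without wild-type PBS), -0.44 (without DTA PBS) to 1.21 for Ccl4 and -1.26 to 0.94 (without wild-type LPS) for Ccl12. Over all genes, LPS calls were 963 higher and 777 lower (55.3% higher). Scaling to the median gave 963 and 1292 (42.7%), the deposited values 1043 and 433 (70.7%), normexp 1016 and 1165, no filter 1583 and 1567, no trend 382 and 48, the mean over probes 813 and 501, and leaving out 1 array 370 to 514 and 70 to 187. The cause of these shifts was not tested. The planned normexp on mean signals was not run, as the scanner files used here lack that column; median signals were chosen after seeing the files. Signals near background (Ccl11, Ccl7 and Ccl4) limit what the arrays resolve.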
